A study of Zea mays with 137 samples.

Results

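Trisomy 4L+monosomy 6L (tri4L_mono6L) joins a gain of one maize chromosome arm with the loss of another in the same plant. It is described here by the ratio of its mean expression to that of its diploid control, in FPKM (fragments mapped to a gene, scaled to transcript length and to the mapped fragments of the library). Genes were kept where both means together came to at least 1 FPKM. These were 20259 of the 40651 genes listed on chromosomes 1 to 10 (41448 with the B chromosome and other sequence). Of these, 1025 of 2057 lay on 4L (chromosome 4 from 170.4 Mb of the W22 genome), 1282 of 2499 lay on 6L (chromosome 6 from 59.6 Mb), and 17952 of 36095 lay on the rest of chromosomes 1 to 10. Genes of the varied arms are called *cis* and all others *trans*. The other 20392 genes were below the limit.

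Leaf RNA of 45-d-old greenhouse plants of the inbred line W22 was sequenced after rRNA removal. All groups of this pair came from 1 cross of a W22 female with a male that was hyperploid for TB-4Lb and euploid for TB-6Lc. The 4 listed plants of tri4L_mono6L carried 3 copies of 4L and 1 copy of 6L. They had 2 copies of B-4Lb with 1 of 4Lb-B, and 1 copy of 6Lc-B without its partner. The 3 controls were normal diploids of the same cross with no translocation. Comparison groups of the pair were mono4L_mono6L (4 plants, 1 copy of each arm), tri4L_tri6L (3 plants, 3 copies of each) and tri4L_tetra6L (1 plant, 3 copies of 4L and 4 of 6L). The deposited tables give 1 mean for each group. They hold no value for each plant, no counts and no depth, and do not record which plants entered a mean. No SD, standard error or test could therefore be computed from the means, and every difference below is a description of group means. The test statistics, p-values and q-values that the tables also carry were not used.

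In a B-A translocation, part of the supernumerary B chromosome is exchanged with the tip of an A chromosome arm. The B centromere often fails to separate at the second pollen mitosis, so that one sperm receives an extra copy of the arm and the other lacks it. A gene on such an arm shows a dosage effect when its mRNA follows the copy number, and dosage compensation when its mRNA stays near the diploid level. Genes elsewhere can respond in *trans*, and an inverse effect is a *trans* response opposite to the dose. Trisomy 4L+monosomy 6L sets both kinds of dose change side by side in the same cells. In leaf tissue, fewer cells of a type and less RNA per cell cannot be told apart.

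In FPKM, the median ratios of both arms lay near the ratio of copy numbers. FPKM is relative to all mapped fragments of a library, so a change in total mRNA would not show. The median ratio on 4L was 1.55, with quartiles of 1.22 and 1.83, beside a gene dosage ratio of 1.5. The median on 6L was 0.538, with quartiles of 0.425 and 0.644, beside a gene dosage ratio of 0.5. *Trans* genes had a median of 1.06, with quartiles of 0.840 and 1.26, and the median was 0.994 when the median of the diploid means of the other 8 pairs served as control. Divided by the *trans* median, the arms stood at 1.46 and 0.509. The mean was above the diploid mean for 84.2% of 4L genes, 3.74% of 6L genes and 57.8% of *trans* genes. On 4L, 562 of 1025 genes had a ratio of at least 1.5, beside 13.2% of all genes of chromosomes 1 to 10. On 6L, 527 of 1282 genes had a ratio of at most 0.5, beside 9.66% of all genes, while 5 genes reached a ratio of at least 2, beside 4.4% of all genes. There were 3 genes on 4L and 1 gene on 6L listed at 0 in the diploid mean, and 4 genes on 6L listed at 0 in tri4L_mono6L.

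**Figure D1:**
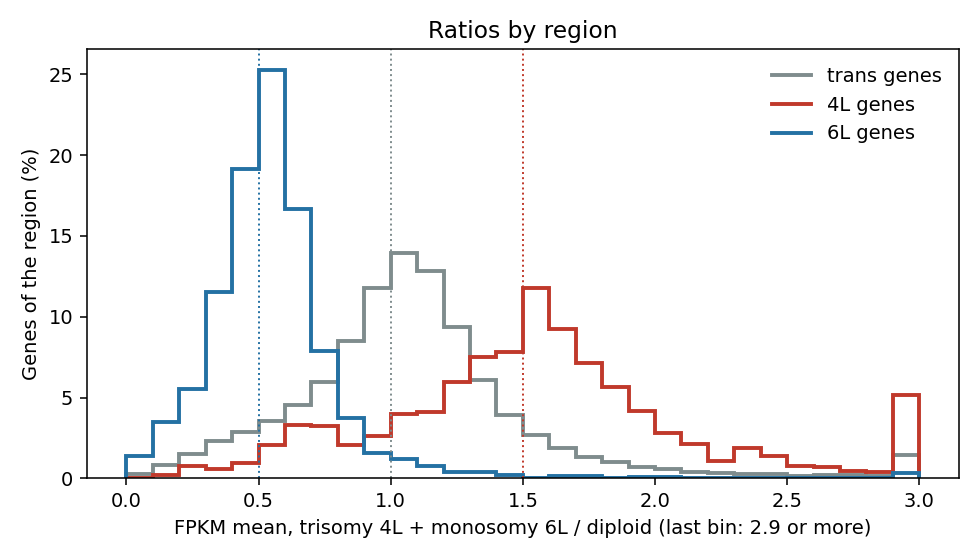
Percent of genes of each region (vertical axis) in bins of 0.1 of the ratio of the tri4L_mono6L mean to the diploid mean (horizontal axis, the last bin holding all ratios of 2.9 or more), for 1025 genes of 4L, 1282 of 6L and 17952 in *trans*. Dotted lines mark ratios of 0.5, 1 and 1.5, and the 3 distributions have medians of 0.538 (6L), 1.06 (*trans*) and 1.55 (4L).

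The 3 distributions were of like width on a log scale. The interquartile range of the log2 ratio was 0.58 on 4L, 0.60 on 6L and 0.59 in *trans*. On 4L, after division by the *trans* median, 306 genes lay within 10% of gene dosage, beside 8.61% of all genes of chromosomes 1 to 10, and 80 lay within 10% of 1, the level of full compensation. On 6L, 327 genes lay within 10% of gene dosage, beside 4.98% of all genes, and 34 lay within 10% of 1. Among all genes of chromosomes 1 to 10, 25.7% lay within 10% of 1. On this scale, 185 genes of 4L stood below 1, beside 51.4% of all genes, and 39 genes of 6L stood above 1, beside 48.6% of all genes.

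The dose change showed as a step along each chromosome. In windows of 20 Mb with at least 20 genes, the medians ran from 1.35 to 1.58 in the 5 windows of 4L and from 0.509 to 0.560 in the 6 windows of 6L. The 103 *trans* windows had medians of 0.949 to 1.18, of which 96 were above 1. At the 6L boundary, the median was 0.957 over the 39 genes of the last 10 Mb before it and 0.511 over the 42 genes of the first 10 Mb of the arm. At the 4L boundary it went from 0.974 (107 genes) to 1.33 (118 genes), and stood at 1.56 over the 907 genes farther out.

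The first 10 Mb of 4L thus stood lower than the remainder of the arm. In the 4 other combinations with trisomy 4L, which come from 2 pairs with a control group each, the same 10 Mb and the remainder had medians of 1.76 and 1.78 (mono3L_tri4L), 1.44 and 1.42 (tri3L_tri4L), 1.47 and 1.49 (tri4L_mono5L), and 1.42 and 1.505 (tri4L_tri5L). The stretch was therefore nearer to the rest of 4L in each of these combinations than in tri4L_mono6L, where the medians were 1.33 and 1.56. It was not examined in tri4L_tri6L and tri4L_tetra6L, which share the diploid mean of tri4L_mono6L. Whether that diploid mean plays a part in the lower stretch was not tested. In the last 10 Mb before the boundary the medians of these 4 combinations ran from 0.885 to 0.965, beside 0.974 in tri4L_mono6L.

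**Figure D2:**
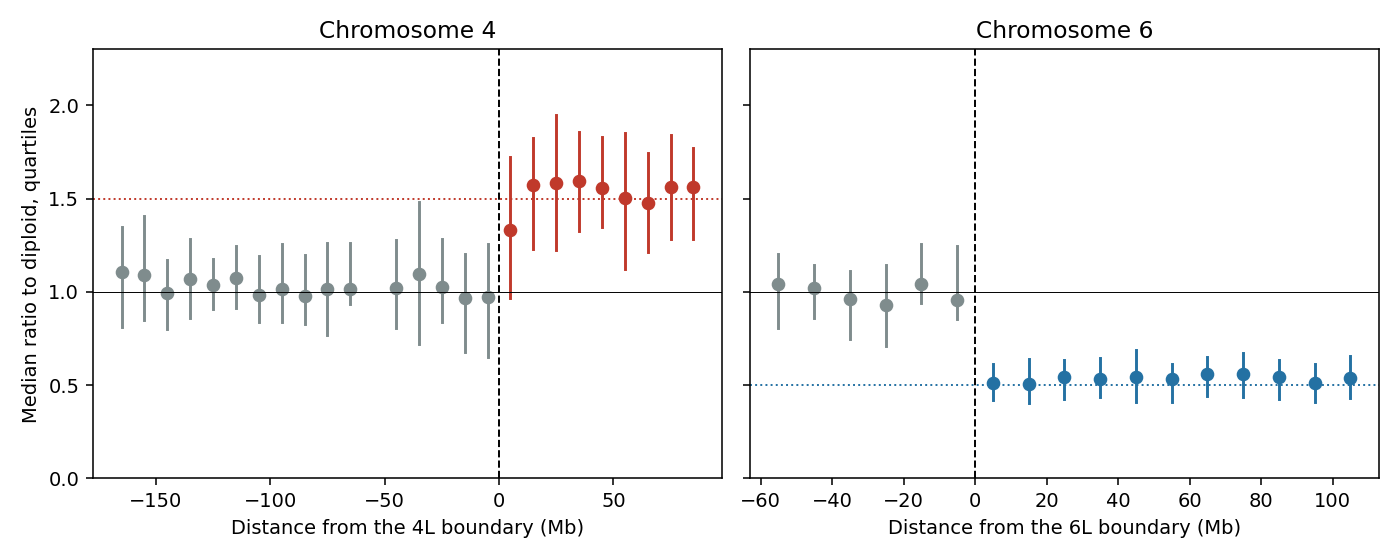
Median ratio to diploid (points) and quartiles (lines) of tri4L_mono6L in bins of 10 Mb, by distance of the gene start from the 4L boundary (left) and the 6L boundary (right), with bins under 20 genes left out. Red and blue bins lie on the varied arm and gray bins on the rest of the chromosome. The dotted lines mark gene dosage, and the bins of 4L start at 1.33 and then lie between 1.48 and 1.60.

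The medians of the arms were alike over most levels of expression, while the spread narrowed up to 100 FPKM. Genes were put into 6 classes by the median of the diploid means of the other 8 pairs, which do not enter the ratio and were scaled separately. On 4L the class medians were 1.49 below 1 FPKM, 1.45 at 1 to 3 FPKM, 1.55 at 3 to 10 FPKM, 1.56 at 10 to 30 FPKM, 1.56 at 30 to 100 FPKM and 1.43 from 100 FPKM. On 6L they were 0.447, 0.531, 0.524, 0.548, 0.546 and 0.564 in the same order. In *trans* they were 0.964, 0.999, 1.04, 1.08, 1.08 and 1.05. The 10th and 90th percentiles of *trans* ratios were 0.286 and 2.49 below 1 FPKM, 0.739 and 1.43 at 30 to 100 FPKM, and 0.637 and 1.44 from 100 FPKM. On 4L they were 1.09 and 1.97 at 30 to 100 FPKM and 0.902 and 2.04 from 100 FPKM. Ratios of at least 2 were found for 13.9% of *trans* genes below 1 FPKM and 1.10% at 30 to 100 FPKM. The filter used the 2 compared means, so a gene of the lowest class could pass because 1 of them was high. Part of the wide spread in that class can come from this filter. The 4723 *trans* genes below 3 FPKM held 466 of the 715 *trans* ratios of at least 2 and 811 of the 1405 ratios of at most 0.5.

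**Figure D3:**
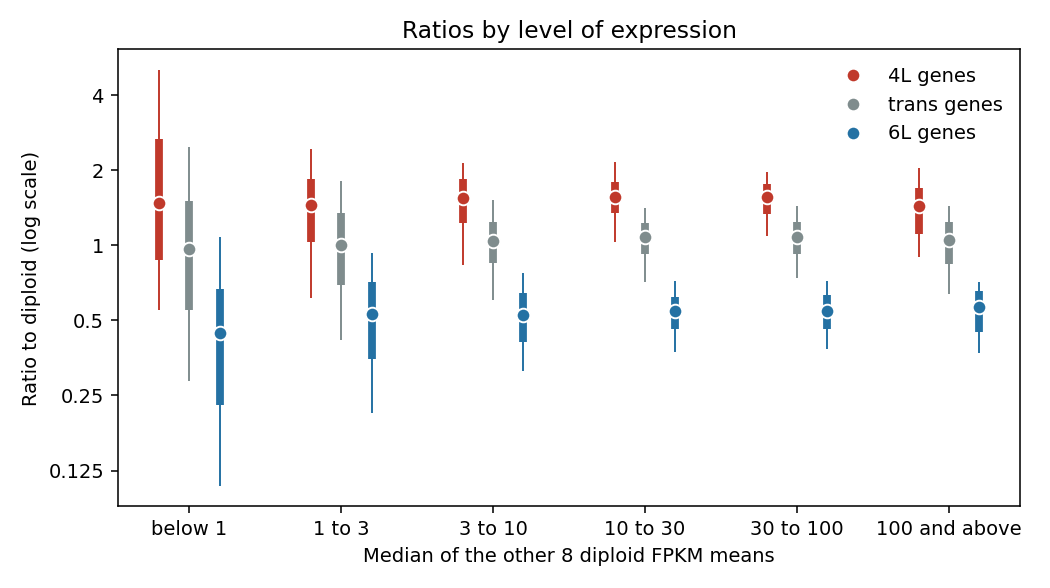
Ratio of the tri4L_mono6L mean to the diploid mean (log scale) by level of expression, taken as the median of the other 8 diploid means in FPKM. Points are medians, thick lines quartiles and thin lines the 10th to 90th percentiles for 4L, *trans* and 6L genes. The 3 regions keep their order in all 6 classes, and the *trans* percentiles narrow from 0.286 to 2.49 in the lowest class to 0.739 to 1.43 at 30 to 100 FPKM and are 0.637 to 1.44 from 100 FPKM.

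Summed expression gives most weight to the most abundant transcripts. The sum over 6L was 51312 FPKM in diploids and 25451 FPKM in tri4L_mono6L, a ratio of 0.496. Over 4L it was 28547 and 35939 FPKM, a ratio of 1.26, below the median of 1.55. The 10 genes of 4L with the largest decrease in FPKM together lost 2497 FPKM, and the 10 with the largest increase gained 2017 FPKM. In *trans* the sum was 555737 and 526315 FPKM, a ratio of 0.947, although the median ratio was above 1. The 10 *trans* genes with the largest decrease lost 20964 FPKM and the 10 with the largest increase gained 6276 FPKM, while the sum over all *trans* genes fell by 29422 FPKM, and 1 gene went from 12526 to 5087 FPKM. The share of all FPKM on 4L was 4.49% in diploids and 6.11% here, and that on 6L was 8.07% and 4.33%.

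Groups of the same pair allowed the dose of each arm to be varied alone. Within this pair the diploid mean was the same in every comparison, so that the means of the groups could be divided by each other directly. Trisomy 4L+monosomy 6L and double monosomy 4L+6L both have 1 copy of 6L and differ in 4L by 3 copies against 1. The median of their ratio was 2.73 on 4L, with quartiles of 2.27 and 3.29, beside 0.927 on 6L and 0.931 in *trans*. Over the *trans* median, 4L stood at 2.93 and 6L at 0.996. At least 2-fold higher levels were found for 843 of 1002 genes of 4L, beside 6.71% of all genes of chromosomes 1 to 10, and 3 genes of 4L were at least 2-fold lower, beside 4.29% of all genes.

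Against double trisomy 4L+6L, 4L was at 3 copies in both groups and 6L at 1 copy against 3. The median ratio was 0.333 on 6L, with quartiles of 0.242 and 0.437, and 0.992 on 4L and 1.00 in *trans*. On 6L, 1103 of 1331 genes were at least 2-fold lower, beside 14.6% of all genes, and 9 genes were at least 2-fold higher, beside 5.2% of all genes. Against the single plant of tri4L_tetra6L, with 4 copies of 6L, the median on 6L was 0.2503, on 4L 0.999 and in *trans* 1.02. Each of these 3 medians on the arm that differed was thus near the ratio of copy numbers.

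**Figure D4:**
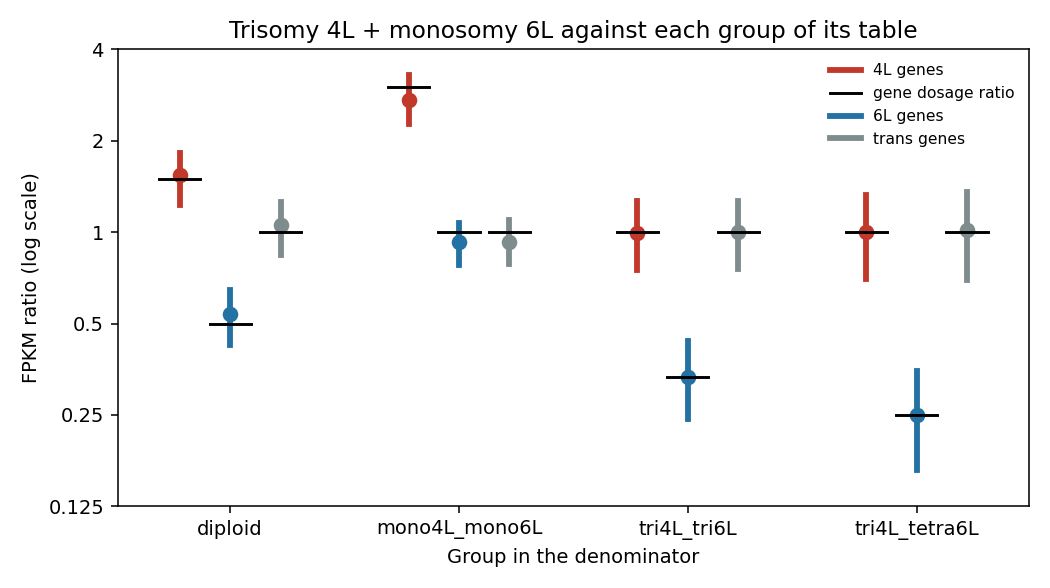
Ratio of the tri4L_mono6L mean to the mean of each group of its table (log scale), as median (points) and quartiles (lines) over genes of 4L, 6L and in *trans*. Black bars mark the ratio of gene copies. The 4L median is 2.73 against mono4L_mono6L and the 6L median is 0.333 against tri4L_tri6L, while the arm with equal copies lies at 0.927 and 0.992.

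Groups measured against the shared diploid controls can be set side by side, with the reservation that the control mean enters each ratio. The medians of 4L, 6L and *trans* genes were 1.55, 0.538 and 1.06 in tri4L_mono6L. They were 0.559, 0.571 and 1.13 in mono4L_mono6L, 1.52, 1.54 and 1.03 in tri4L_tri6L, and 1.51, 2.06 and 1.03 in the plant of tri4L_tetra6L. The interquartile range of the log2 *trans* ratio was 0.59, 0.67, 0.55 and 0.80 in these groups. In tri4L_mono6L more *trans* genes were at least 2-fold lower than at least 2-fold higher, with 1405 (7.83%) and 715 (3.98%). The shares over all genes of chromosomes 1 to 10 were 9.66% and 4.4%. With the median of the other 8 diploid means as control, 804 *trans* genes were lower and 635 higher. The counts of lower and higher *trans* genes were 1429 (7.91%) and 1408 (7.80%) in mono4L_mono6L, and 646 (3.58%) and 990 (5.49%) in tri4L_tri6L. In the single plant of tri4L_tetra6L they were 1350 (7.41%) and 2001 (11.0%).

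*Trans* ratios were similar between chromosomes. On the 8 chromosomes with no varied arm, the medians ran from 1.05 to 1.08. The share of genes at least 2-fold higher ran from 3.05% to 4.34% and that of genes at least 2-fold lower from 6.69% to 8.19%. The 1064 *trans* genes of chromosome 4 had a median of 1.03, with 5.83% at least 2-fold higher and 9.96% at least 2-fold lower. The 284 *trans* genes of chromosome 6 had a median of 1.02, with 3.87% and 9.15%. At a ratio of at least 4 there were 18 *trans* genes (1.69%) on chromosome 4, beside 0.859% of all genes of chromosomes 1 to 10 and 0.581% to 0.925% on the 8 chromosomes with no varied arm. On chromosome 6 there were 4 (1.41%).

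Some genes were near 0 in one group and expressed in the other. A diploid mean below 0.1 FPKM with a mean of at least 1 FPKM in tri4L_mono6L was found for 34 *trans* genes, beside 0.188% of all genes of chromosomes 1 to 10. Of these, 25 were listed at 0 in diploids, and 6 lay on chromosome 4, which holds 5.93% of the *trans* genes. In the other 8 diploid means, 24 of the 34 were below 0.1 FPKM in at least 4, but only 3 in all 8. Of the 6 on chromosome 4, 0 were below 0.1 FPKM in all 8. The 6 genes had means of 1.27 to 2.78 FPKM in tri4L_mono6L. Of them, 5 also reached 1 FPKM in mono4L_mono6L, 5 in tri4L_tri6L and 3 in tri4L_tetra6L. The opposite pattern, with a mean below 0.1 FPKM in tri4L_mono6L and at least 1 FPKM in diploids, was found for 25 *trans* genes, beside 0.163% of all genes, of which 2 lay on chromosome 4. In the group that expressed them, these genes had a median of 1.84 FPKM and a highest mean of 18.96 FPKM among the former. Among the latter the values were 1.90 and 3.93 FPKM.

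The spread between diploid means shows how much groups of different pairs differ without a dose change. The diploids of the 9 pairs came from separate crosses and were scaled separately. Their differences therefore also hold those of cross, of scaling and of any separate planting. Between the diploids of 4L+6L and each of the other 8, the interquartile range of the log2 *trans* ratio ran from 0.55 to 1.02, with a median of 0.73. It was 0.59 for tri4L_mono6L over its own diploids. The share of *trans* genes differing at least 2-fold in either direction ran from 9.01% to 25.4%, against 11.8%. Among the diploids of the other pairs, 28 comparisons had interquartile ranges of 0.377 to 0.983 and shares of 4.10% to 24.3%. The width of the *trans* distribution here lay within these ranges. All of them come from comparisons across pairs, whereas tri4L_mono6L and its diploids share a cross and a scaling. They therefore do not give the width to be met within a pair without a dose change.

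The *cis* genes stood apart from the diploid means to a greater extent. On 4L, 562 of 1025 genes had a mean above all 9 diploid means, beside 14.5% of all genes of chromosomes 1 to 10. On 6L, 1021 of 1282 genes had a mean below all 9, beside 12.8% of all genes. In *trans*, 2371 genes (13.2%) lay above and 1552 genes (8.65%) below.

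Genes that stood near the diploid level on the varied arms were followed into combinations of other pairs, which share no plants with this one. Ratios there were divided by the *trans* median of each comparison. The 80 genes of 4L within 10% of 1 had medians of 1.41 in mono3L_tri4L, 1.34 in tri3L_tri4L, 1.505 in tri4L_mono5L and 1.501 in tri4L_tri5L, beside 1.69, 1.497, 1.47 and 1.47 over all genes of 4L. Of the 80, 58 were within 10% of 1 in none of the 4 combinations, 16 in 1 of them and 6 in 2 of them. The share within 10% of 1 was 5.41%, 14.3%, 6.67% and 10.5% of the genes with a value, in the order given, beside 6.25%, 7.89%, 8.10% and 8.11% of the other genes of the arm.

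The 34 genes of 6L within 10% of 1 had medians above that of the arm in each combination followed. Their medians were 0.802 in tri5L_mono6L, 0.862 in mono5L_mono6L, 0.540 in mono6L_tri9S and 0.661 in mono6L_mono9S, beside 0.4995, 0.513, 0.502 and 0.510 over all genes of 6L. They were within 10% of 1 in none of the 4 combinations for 19 genes, in 1 for 11 genes and in 2 for 4 genes. The share within 10% of 1 was 11.8%, 15.2%, 9.09% and 20.6% of them in the order given, beside 4.59%, 4.00%, 2.79% and 3.36% of the other genes of the arm.

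Across genes with a mean of at least 1 FPKM in all 4 groups compared, the log2 ratios of 4L genes had a Pearson r of 0.41 with mono3L_tri4L (862 genes), 0.36 with tri3L_tri4L (867 genes), 0.23 with tri4L_mono5L (865 genes) and 0.26 with tri4L_tri5L (867 genes). The *trans* genes of the same combinations had r of 0.32, 0.22, 0.15 and 0.14. For 6L genes r was 0.08 with tri5L_mono6L (1039 genes), 0.23 with mono5L_mono6L (1047 genes), 0.15 with mono6L_tri9S (978 genes) and 0.07 with mono6L_mono9S (1023 genes). The *trans* genes of these combinations had r of -0.06, 0.06, 0.15 and 0.10. Genes are not independent replicates, and these values describe the genes of 1 pair of means each.

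*Trans* genes past 2-fold were followed in the same way, among 15674 *trans* genes at 1 FPKM or more in each of the 2 groups. There were 336 higher and 834 lower genes, beside 2.6% and 7.06% of all genes of chromosomes 1 to 10 with such means. In the 4 other combinations with trisomy 4L, the higher genes had medians of 1.16 to 1.94 and the lower genes 0.600 to 0.948. In the 4 other combinations with monosomy 6L, the higher genes had medians of 1.05 to 1.33 and the lower genes 0.868 to 1.39. With monosomy 4L (4 combinations) they were 1.07 to 1.35 and 0.902 to 1.46, and with trisomy 6L (4 combinations) 0.813 to 0.874 and 0.801 to 1.22. The 13 combinations in which neither 4L nor 6L was varied had medians of 0.959 to 1.78 for the higher genes and 0.442 to 1.43 for the lower genes. The medians of the higher genes with trisomy 6L thus lay below those of the other 25 combinations, and the lowest median of the lower genes was that of mono1S_tri9L (0.442). Combinations of 1 pair share their diploid controls, and the differences between these kinds of combination were not tested.

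The diploid mean of this pair, which entered the choice of these genes, stood apart from the other diploid means over them. Divided by the median of the other 8 diploid means, the diploids of 4L+6L stood at 0.621 over the higher genes and 2.05 over the lower genes, beside 0.950 over all *trans* genes with such means. The mean of tri4L_mono6L stood at 1.52 and 0.759, beside 0.999. Of the 336 higher genes 87 (25.9%) were also at least 2-fold above the median of the other diploids. Of the 834 lower genes 142 (17.0%) were at least 2-fold below it. With that control, 635 of 17864 *trans* genes were higher and 804 lower, where both means together came to at least 1 FPKM. The same tri4L_mono6L mean entered the choice of the genes and this second ratio. Over the diploids of 4L+6L, the higher genes had medians of 2.17 in mono4L_mono6L, 1.31 in tri4L_tri6L and 1.42 in the plant of tri4L_tetra6L. The lower genes had 0.414, 0.822 and 0.822. In the groups of this pair with added 6L, the higher genes thus stood above 1, unlike with trisomy 6L in other pairs. The diploid mean that entered the choice of the genes is the denominator here, so the 2 results are not directly comparable.

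**Figure D5:**
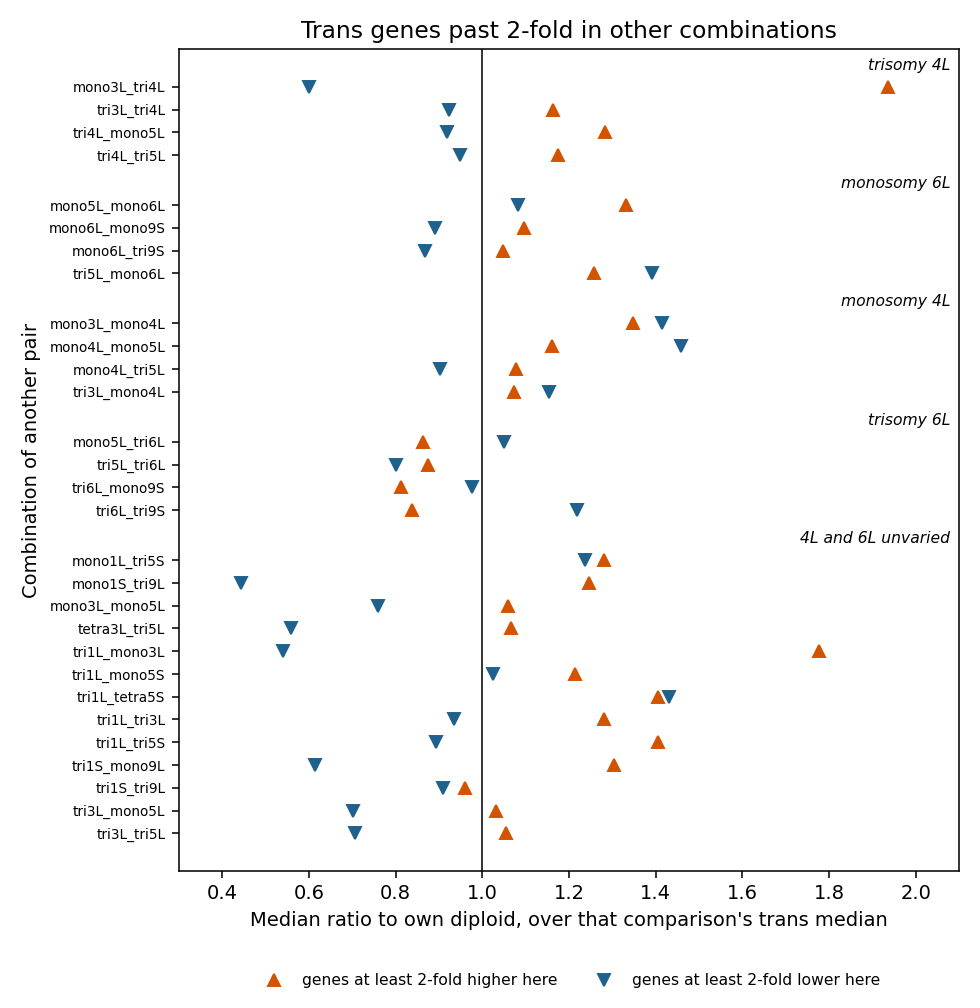
Median ratio to their own diploids, over the *trans* median of each comparison (horizontal axis), of the *trans* genes at least 2-fold higher (triangles up, 336 genes) or lower (triangles down, 834 genes) in tri4L_mono6L, in 29 combinations of other pairs (vertical axis). Genes on chromosomes with a varied arm in that combination were left out. The higher genes lie above 1 in 24 of the 29 and the lower genes lie below 1 in 19, and the higher genes lie below 1 in all 4 combinations with trisomy 6L.

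Names were known for 10 identifiers, those of genes chosen for digital PCR. Among them, px5, which encodes a peroxidase, lies on 6L (Zm00004b030088, chromosome 6, 125549900 to 125551670). Its mean was 131.9 FPKM in diploids and 51.9 FPKM in tri4L_mono6L, a ratio of 0.393. It was 121.5 FPKM in mono4L_mono6L, 209.8 FPKM in tri4L_tri6L and 678.0 FPKM in tri4L_tetra6L. The mean of tri4L_mono6L lay below all 9 diploid means, and the other 8 ran from 154.5 to 476.0 FPKM. In other combinations with monosomy 6L the ratio to their own diploids was 0.425 in tri5L_mono6L, 0.607 in mono5L_mono6L, 0.563 in mono6L_tri9S and 1.51 in mono6L_mono9S.

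The 9 *trans* genes had ratios of 0.668 to 1.36, with 6 above 1 and 3 below. The lowest was the gene of the photosystem II reaction centre W protein, a small subunit of photosystem II, at 1260 FPKM in diploids and 841.4 FPKM here. The cysteine protease gene ccp1 followed, at 1133 and 795.8 FPKM and a ratio of 0.702. The annexin gene, which encodes a calcium-dependent membrane-binding protein, stood at 30.9 and 27.9 FPKM. All 3 means lay within the range of the 9 diploid means.

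Among genes with ratios above 1, glk8, a transcription factor gene of the G2-like family, had 22.8 and 30.9 FPKM and a ratio of 1.36. The gene sat4, whose serine acetyltransferase acts in cysteine synthesis, had 26.9 and 33.5 FPKM and a ratio of 1.25. The MSI1 family gene, which encodes a WD repeat protein of the kind that binds histones, had 18.9 and 21.9 FPKM. The SNF7 gene, of a family that acts in membrane remodelling, had 43.9 and 48.3 FPKM. These means were within the range of the 9 diploid means. Over the median of the other 8 diploid means, however, glk8 stood at 0.794, sat4 at 0.797, the MSI1 family gene at 0.999 and SNF7 at 0.829. The SNF7 mean lay below all of these 8, which started at 49.6 FPKM. ZmMed12b, a subunit gene of Mediator, had 19.3 and 20.7 FPKM, and the 1-phosphatidylinositol-3-phosphate 5-kinase gene had 48.0 and 49.7 FPKM. Both stood above all 9 diploid means, at ratios of 1.07 and 1.04 to their own diploids and of 1.32 and 1.89 to the median of the other 8.

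The *trans* genes at the ends of the distribution were taken from the 2343 at 5 FPKM or more in each group whose mean lay outside the 9 diploid means. The highest ratio was that of Zm00004b028833 (chromosome 6, 42887412 to 42889106), with 6.76 FPKM in diploids and 41.7 FPKM here, a ratio of 6.16. Its mean was 4.01 FPKM in mono4L_mono6L and 2.38 FPKM in tri4L_tri6L, and the other 8 diploid means ran from 0.205 to 3.45 FPKM. This gene was high in tri4L_mono6L alone among the groups of its pair.

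Next was Zm00004b021723 (chromosome 4, 108784539 to 108785055), with 78.9 and 414.9 FPKM and a ratio of 5.26. It was also high in mono4L_mono6L at 488.3 FPKM and in tri4L_tri6L at 579.8 FPKM, but at 96.9 FPKM in the plant of tri4L_tetra6L. Both genes with the highest ratios lie on the unvaried part of a chromosome that carries a varied arm. These parts hold 1064 (chromosome 4) and 284 (chromosome 6) of the 17952 *trans* genes. The 2 genes were picked as extremes of the same data, and a link with the varied arms was not tested.

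The lowest ratios were those of Zm00004b013960 (chromosome 5, 172471576 to 172472119), with 40.2 and 6.61 FPKM and a ratio of 0.164, and of Zm00004b001789 (chromosome 1, 73358572 to 73359695), with 119.4 and 19.7 FPKM and a ratio of 0.165. The former stood at 8.61 FPKM in mono4L_mono6L and 19.1 FPKM in tri4L_tri6L, and the other 8 diploid means ran from 6.98 to 20.2 FPKM. The latter stood at 21.7 FPKM in mono4L_mono6L and 130.0 FPKM in tri4L_tri6L, and the other 8 diploid means ran from 21.3 to 105.8 FPKM. Against the median of those 8 means, the 2 ratios were 0.596 and 0.556, so that the diploid mean of this pair was itself high for both genes.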

How the data were processed

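Leaf RNA of 4 tri4L_mono6L plants and 3 diploid controls was compared with the other groups of the 4L+6L pair and with combinations of 8 other pairs. The authors processed the reads with fastp, STAR and Cuffdiff (W22 genome plus the B chromosome), and deposited 1 FPKM mean per group and gene. Versions and library scaling are not given in the sources used here. Columns of fold changes, test statistics, p-values and q-values were not used.

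Ratios were computed with no pseudocount for genes whose means added up to 1 FPKM or more. Genes at 0 in the denominator were kept in medians as infinite. With 1 mean per group, no test was run. Tables of other pairs were scaled separately, and their ratios were divided by their own *trans* median, leaving out both varied chromosomes. Named genes were the 10 digital PCR genes and the 2 highest and 2 lowest *trans* ratios under the rule given in the text. Of the identifiers, 0 matched the available reference of another maize line. Coordinates are those of the files. Members and lists were chosen with earlier results of these data known. The code for region medians and for counts past 2-fold was tested on simulated means, and the other steps were not. Alternatives were other filters, pseudocounts, controls and folds. Python 3.11.15, numpy 2.4.6, pandas 2.3.3 and scipy 1.17.1 were used.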

Additional observations from a re-analysis of the deposited data

Results flagged for a closer look

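Genes of the B chromosome lay outside the comparison of chromosomes 1 to 10 but gave a signal above that of the diploid controls. Their summed mean was 629.8 FPKM in tri4L_mono6L and 32.7 FPKM in diploids, which carry no translocation. Of 686 B chromosome genes, 108 reached 1 FPKM in tri4L_mono6L and 5 in diploids. Of the 108, 82 were listed at 0 in diploids. The sum was 176.9 FPKM in mono4L_mono6L, 905.2 FPKM in tri4L_tri6L and 776.3 FPKM in tri4L_tetra6L. Along the B chromosome, genes starting before 50 Mb summed to 312.9 FPKM in tri4L_mono6L, 9.35 FPKM in mono4L_mono6L and 567.8 FPKM in tri4L_tri6L. Genes from 70 Mb onward summed to 233.7, 132.0 and 214.6 FPKM in the same order. The karyotypes list 2 chromosomes with a B centromere part (B-4Lb) in tri4L_mono6L, none in mono4L_mono6L and 4 in tri4L_tri6L.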

How the results depend on the processing

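Of 55 values recomputed under the alternatives, 32 stayed close to the main value, 22 moved and 1 changed side of 1. Close meant within the 95% order-statistic interval of the median, or within 1.5 times a count. This interval treats genes as independent, so it reflects the number of genes and not the spread between plants. Some alternatives, such as the 1.5-fold limit or division by the *trans* median, move a value by design. The tally therefore does not measure how robust a result is. The 4L median was 1.45 with a pseudocount of 1 FPKM, 1.46 over the *trans* median and 1.43 with the median of the other 8 diploid means as control. The 6L median was 0.599, 0.509 and 0.498 in the same order. The *trans* median was 1.07 for genes whose means added up to 10 FPKM or more and 1.05 with a pseudocount of 1 FPKM, and with the other diploid means as control it fell below 1, to 0.994. Higher *trans* genes (715) numbered 3007 with no filter, 175 at 10 FPKM or more, 271 with a pseudocount of 1 FPKM and 2094 at 1.5-fold. Lower *trans* genes (1405) numbered 3217, 550, 774 and 2567 in that order, and 804 with the other diploid means as control. The 4L median against double monosomy was 2.66 and 2.33 with pseudocounts of 0.1 and 1 FPKM and 2.93 over the *trans* median. The 6L median against double trisomy was 0.346 with both means above 0.5 FPKM and 0.409 with a pseudocount of 1 FPKM. A pseudocount draws ratios toward 1 and a filter changes the genes counted. For the other control the cause was not tested. No paired analysis was possible because the tables hold only group means, and for the same reason no plant could be left out. Depth is unknown.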
